A study of Homo sapiens with 12 samples.

Results

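LINC symbols name long intergenic noncoding RNAs, transcripts without an established protein product that are encoded mostly between protein-coding genes. The 188 members described here were the rows of the gene table with a symbol made of LINC and digits and a mean of at least 10 normalised counts over the 12 libraries, where a normalised count is the number of reads assigned to a gene divided by the size factor of its library. The table held 1828 such symbols, of which 1640 lay under the minimum and 977 had no read in any library, and 63086 genes in all. The members were chosen by this measured mean over all libraries, so their being expressed is no result. LINC02422 and LINC01001 lay just inside the minimum, with means of 10.0 and 10.1, and LINC01132 and LINC00115 just outside it, with 9.95 and 9.35.

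RNA was sequenced from MIA PaCa-2, an established human pancreatic carcinoma cell line, to find what the loss of TIMP1 changes in these cells. TIMP1 encodes tissue inhibitor of metalloproteinases 1, a secreted protein. There were 4 lines with 3 biological replicates each: unmodified cells (WT), a CRISPR Control line that went through Cas9 editing and kept only a silent base change, and TIMP1 KO 1 and TIMP1 KO 2, a pair of knockout clones made with guides to different regions of exon 4. All were grown in RPMI 1640 with 10% serum. Each knockout line was a single clone, and whether CRISPR Control was one is not given in the sources used here. The editing and any cloning cannot be told apart from the genotype of an edited line. WT and CRISPR Control are called TIMP1-competent below, and both knockout lines TIMP1-deficient.

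Long noncoding RNAs can act on the transcription of nearby genes, hold protein complexes together or bind microRNAs, and many are made in few cell types and at low levels. Some are transcribed beside genes for developmental transcription factors and are studied together with them. For most LINC RNAs no function is known, so many of the members can be described only by their level and their place in the genome.

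The libraries held 26908701 to 36093563 reads in genes. TIMP1 was at 3837, 3290 and 3532 normalised counts in WT, 2285, 2826 and 2959 in CRISPR Control, 1562, 1624 and 1613 in TIMP1 KO 1 and 1136, 1192 and 1155 in TIMP1 KO 2. Every deficient library lay below every competent one, and TIMP1 was also lower in CRISPR Control than in WT (log2 fold change -0.41, limma adjusted p = 0.000769). All lines held both epithelial and mesenchymal markers, with KRT8 means between 39963 normalised counts (CRISPR Control) and 135667 (TIMP1 KO 1), VIM means of 58625 to 93176, ZEB1 of 954 to 1288 and CDH2 of 93.7 to 1110, and a low KRT7 of 91.5 to 191. Over the 6 markers of leukocytes, endothelium, hepatocytes and acinar cells the summed level per library was 10.5 to 21.5 normalised counts in WT, 17.8 to 22.5 in CRISPR Control, 4.32 to 5.63 in TIMP1 KO 1 and 30.7 to 38.9 in TIMP1 KO 2. CD3E had no read outside TIMP1 KO 2, PRSS1 none in CRISPR Control and PECAM1 none in TIMP1 KO 1, and the part of these markers in the results was not tested. In bulk RNA, fewer cells of a type and less RNA per cell cannot be told apart.

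All 188 members were placed on the GENCODE release 44 annotation of GRCh38, 185 as long noncoding RNAs and 3 as protein-coding genes, since LINC00634, LINC00514 and LINC01862 now carry the names SMIM45, GREP1 and NFILZ. Another 20 had been renamed as noncoding RNAs, such as LINC01578, now CHASERR, and LINC00704, now MANCR. A protein-coding gene lay within 100 kb of 167 members, and 18 stood head to head with one, start sites at most 2 kb apart. Exons of 70 members overlapped a gene on the other strand, and 23 members shared at least 300 bases at 97% identity or more with another gene. Whether the counting used strand is not given in the sources used here, so the reads of these members may include those of a partner or copy.

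Promoters in the RefSeq table (GRCh38.p14, 250 bases before the start site and 50 after it) matched 140 of the 188 members. They are shown for the most abundant member beside a forkhead gene, for 3 of the members that changed in both deficient lines and not in CRISPR Control, and for a member high in TIMP1 KO 2. Capitals mark TGTTTAC, the core of forkhead sites, and TGANTCA, the site of AP-1, where N is any base, each searched on both strands without overlap between them.
LINC00261 (chr20:22578593-22578892, minus strand): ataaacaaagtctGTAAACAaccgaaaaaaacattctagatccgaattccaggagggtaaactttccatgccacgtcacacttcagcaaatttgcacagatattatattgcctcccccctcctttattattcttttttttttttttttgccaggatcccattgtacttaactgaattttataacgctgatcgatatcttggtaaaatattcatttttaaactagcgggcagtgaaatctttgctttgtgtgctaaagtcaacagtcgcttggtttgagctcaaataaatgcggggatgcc
LINC01124 (chr2:170714518-170714817, minus strand): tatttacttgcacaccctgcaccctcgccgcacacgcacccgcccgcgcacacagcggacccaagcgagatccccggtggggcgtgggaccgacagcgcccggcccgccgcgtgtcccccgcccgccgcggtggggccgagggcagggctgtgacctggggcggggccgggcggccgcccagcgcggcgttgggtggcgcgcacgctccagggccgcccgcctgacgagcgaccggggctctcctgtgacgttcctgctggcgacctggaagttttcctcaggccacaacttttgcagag
LINC00513 (chr7:130913214-130913513, plus strand): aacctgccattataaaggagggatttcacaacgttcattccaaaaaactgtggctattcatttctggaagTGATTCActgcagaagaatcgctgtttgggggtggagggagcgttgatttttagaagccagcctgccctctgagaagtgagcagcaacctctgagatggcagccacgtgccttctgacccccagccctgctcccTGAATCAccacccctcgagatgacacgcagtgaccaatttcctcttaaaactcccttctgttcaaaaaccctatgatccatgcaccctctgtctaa
LINC02520 (chr6:37507098-37507397, plus strand): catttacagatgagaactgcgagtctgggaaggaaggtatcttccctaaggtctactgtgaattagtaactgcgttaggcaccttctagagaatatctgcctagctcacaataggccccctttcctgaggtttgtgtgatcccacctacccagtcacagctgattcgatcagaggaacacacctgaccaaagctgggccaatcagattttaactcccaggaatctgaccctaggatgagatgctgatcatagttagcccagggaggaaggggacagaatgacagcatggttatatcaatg
LINC00702 (chr10:4243863-4244162, minus strand): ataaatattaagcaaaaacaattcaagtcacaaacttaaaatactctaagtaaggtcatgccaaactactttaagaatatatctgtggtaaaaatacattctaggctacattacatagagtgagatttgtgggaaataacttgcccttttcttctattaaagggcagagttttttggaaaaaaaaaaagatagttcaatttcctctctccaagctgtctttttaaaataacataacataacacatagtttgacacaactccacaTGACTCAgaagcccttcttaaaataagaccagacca
LINC00261 held the forkhead core 1 time, LINC00513 the AP-1 site in 2 places and LINC00702 in 1, and the windows of LINC01124 and LINC02520 held neither string. Over members, 5.71% of promoters held the forkhead core and 8.57% the AP-1 site, against 3.42% and 7.73% of the 34796 promoters in the table. LINC01124 had a GC content of 74.0% with 38 CpG dinucleotides and LINC00702 one of 31.3% with none, around a median of 62.2% over members and 58.7% over all promoters. These matches describe letters in a window and were not tested.

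**Figure D1:**
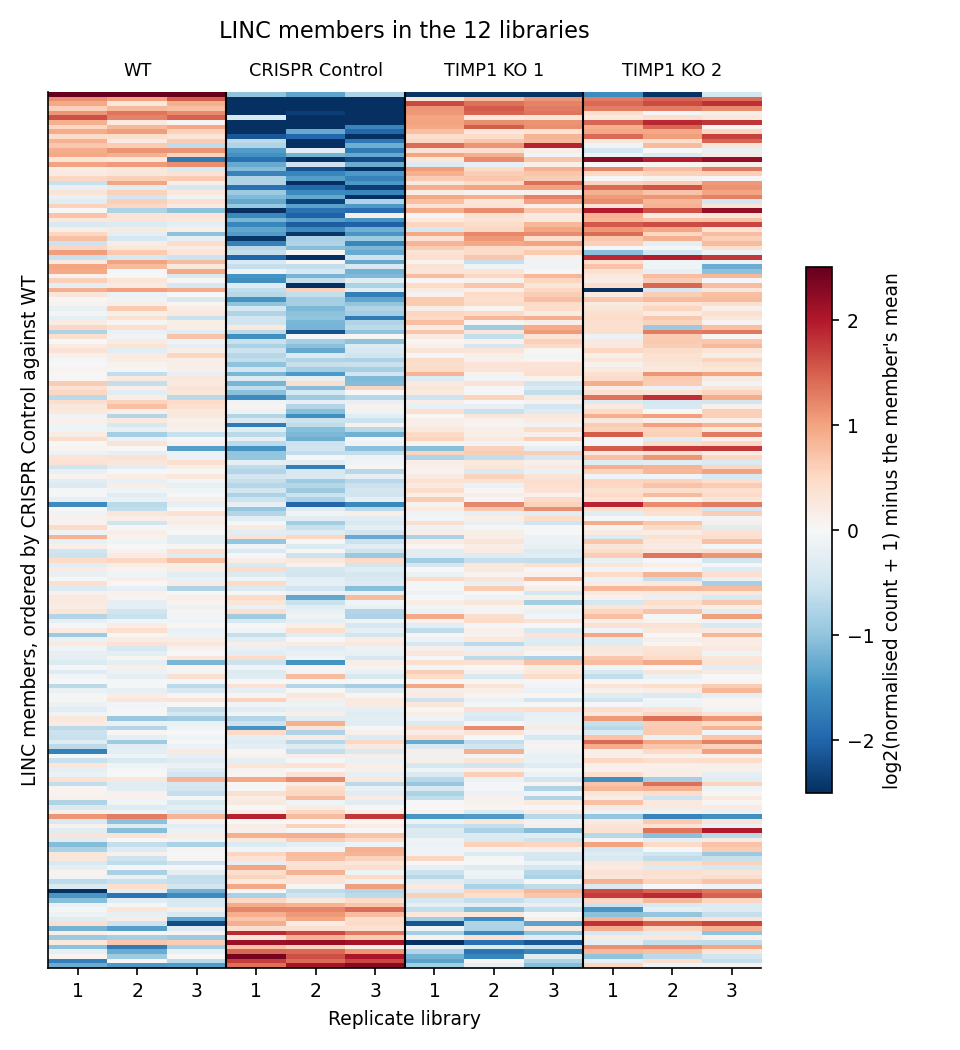
Each row is one of the 188 LINC members and each column a library; colour shows log2(normalised count + 1) minus the member's own mean over the 12 libraries, from blue (lower) to red (higher), cut at 2.5 either way. Rows are ordered by CRISPR Control against WT, so the gradient down that block is built in. Of the members lower in CRISPR Control than in WT, 59 were higher than CRISPR Control in both knockout lines (31.4% of the 188, against 17.8% of all genes).

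The members were on the whole low in CRISPR Control and high in TIMP1 KO 2. Summed over all members the level was 27793 ± 196 normalised counts (SD, n = 3) in WT, 21135 ± 380 in CRISPR Control, 29531 ± 267 in TIMP1 KO 1 and 32525 ± 443 in TIMP1 KO 2. No library of one line overlapped another line's range in this sum. LINC00261 alone carried much of it, and without that member the sums were 23237, 19628, 24981 and 26102 in the same order. Of the 188 members, 104 had their lowest line mean in CRISPR Control, as did 33.6% of the 15987 genes tested, and 97 had their highest in TIMP1 KO 2, as did 29.0% of all genes.

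The lines were compared in one limma fit on log2(normalised count + 1), in which fold changes of low genes are understated. A gene was called at a Benjamini-Hochberg adjusted p under 0.05 over all 15987 genes with a mean of at least 10. In at least 1 of the 6 pairs of lines 157 members were called, against 86.9% of all genes. The minimum was met by line means in all 4 lines for 131 members, in 3 lines for 35, in 2 for 17 and in 1 for 5, and those that pass through few lines differ between lines by construction, so the counts below describe the members beside all genes and are not a test of them.

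CRISPR Control differed from WT mostly downwards. There 72 members were lower (38.3%) and 26 higher (13.8%), where 26.3% of all genes were lower and 27.2% higher, and the median log2 fold change of members was -0.36 against 0.01 over all genes. The 1839 other long noncoding RNAs tested had 26.6% lower, 10.7% higher and a median of -0.20, and the 13218 protein-coding genes 26.7%, 30.4% and 0.03. Members between 10 and 30 normalised counts had a median of -0.59 while all genes at that level had 0.03, and members at 100 and over had -0.26 while all such genes had 0.01.

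**Figure D2:**
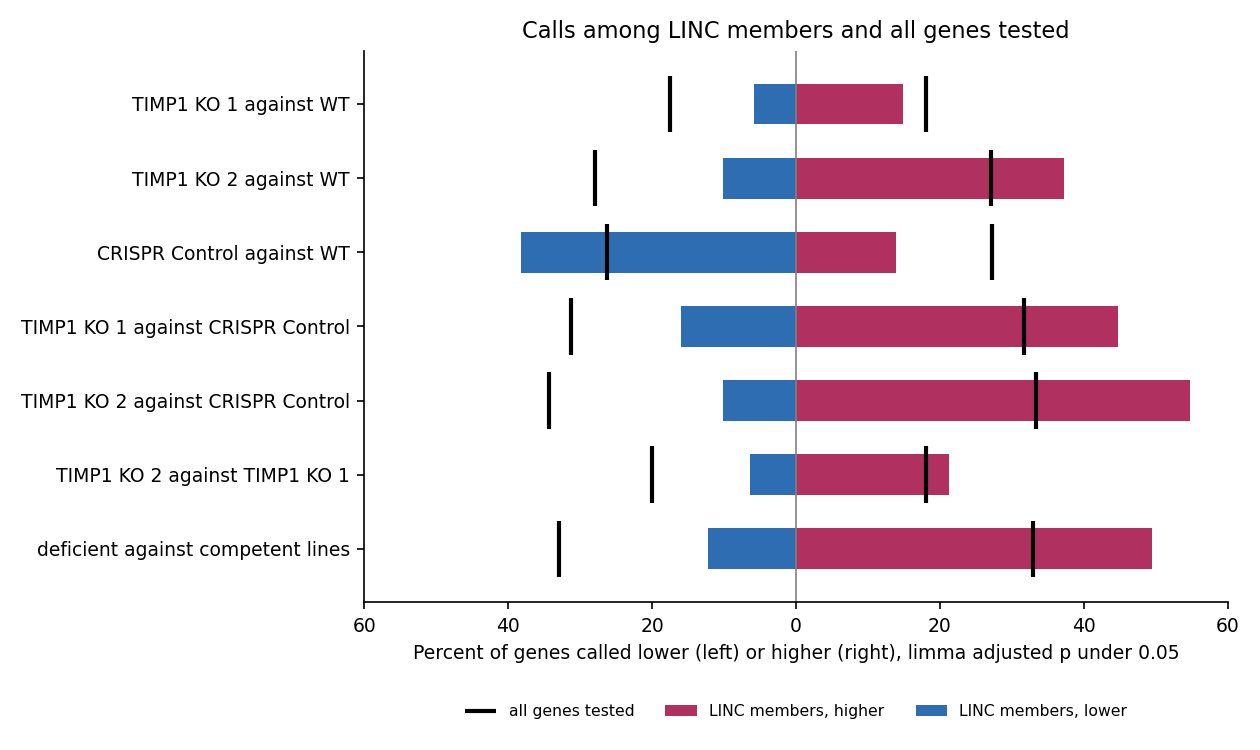
Bars give the percent of the 188 LINC members called lower (left, blue) or higher (right, red) in each comparison at a limma adjusted p under 0.05; black lines give the same percent over the 15987 genes tested. The blue bar passes its line only in CRISPR Control against WT (38.3% against 26.3%), and the red bars reach 54.8% in TIMP1 KO 2 against CRISPR Control.

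In TIMP1 KO 1 fewer members were called than in the other comparisons with WT. There 28 were higher and 11 lower (14.9% and 5.85%), against 18.0% and 17.5% of all genes, with a median log2 fold change of 0.11. Of the other long noncoding RNAs, 11.5% were higher and 5.66% lower, with a median of 0.09. TIMP1 KO 2 had 70 members higher than WT and 19 lower (37.2% and 10.1%), against 27.1% and 27.9% of all genes, with a median of 0.34. Other long noncoding RNAs had 27.0% higher and 9.52% lower there, with a median of 0.27. Between 10 and 30 normalised counts the median in TIMP1 KO 2 was 0.40 over members, 0.40 over other long noncoding RNAs, 0.41 over protein-coding genes and 0.29 over all genes at that level.

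Against CRISPR Control the same lines gave larger counts. TIMP1 KO 1 had 84 members higher and 30 lower, where 31.7% and 31.3% of all genes were called, and TIMP1 KO 2 had 103 higher and 19 lower, where 33.3% and 34.4% were. Other long noncoding RNAs had 33.5% higher and 12.1% lower in TIMP1 KO 1, and 42.0% and 11.5% in TIMP1 KO 2. Between the deficient lines, 40 members were higher and 12 lower in TIMP1 KO 2 than in TIMP1 KO 1, against 18.1% and 20.1% of all genes. Of other long noncoding RNAs, 15.6% were higher and 6.42% lower.

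With the lines joined, 93 members were higher and 23 lower in the deficient than in the competent lines, against 32.9% and 33.0% of all genes, and the median log2 fold change was 0.43. Other long noncoding RNAs had 38.6% higher and 12.1% lower, with a median of 0.28. Of these 93 members, 53 were also lower in CRISPR Control than in WT (28.2% of the 188, against 16.9% of all genes placed so), 30 were called in neither knockout line against WT (15.96% against 7.78%), and 22 were higher than WT in both (11.7% against 12.8%). With WT alone as the competent group, an alternative chosen after the data were seen, 56 members were higher and 15 lower, against 24.7% and 25% of all genes. A group of 59 members was lower in CRISPR Control than in WT and higher than CRISPR Control in both knockout lines (31.4% against 17.8% of all genes), and 29 of these were called in neither knockout line against WT (15.4% against 6.71%). These shares rest on the same CRISPR Control libraries and were not tested.

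**Figure D3:**
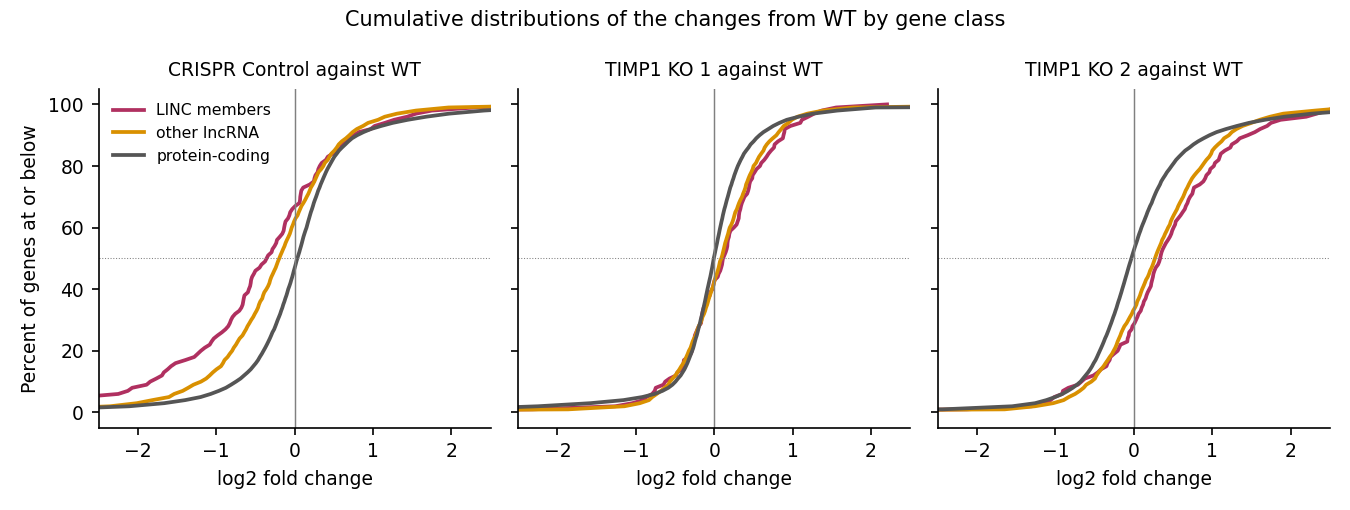
Cumulative percent of genes (vertical axis) at or below a log2 fold change (horizontal axis, shown from -2.5 to 2.5) for LINC members, other long noncoding RNAs and protein-coding genes, in CRISPR Control, TIMP1 KO 1 and TIMP1 KO 2 against WT. In CRISPR Control the member curve lies left of the others (median -0.36), in TIMP1 KO 1 the curves are close (member median 0.11) and in TIMP1 KO 2 both noncoding curves lie to the right (0.34 and 0.27).

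The most abundant member was LINC00261, which is transcribed beside FOXA2, the gene of a transcription factor of endoderm and pancreas development, 2356 bases from it on chromosome 20 (22547663 to 22578642, minus strand). It was at 4535, 4647 and 4486 normalised counts in WT, 1706, 1465 and 1351 in CRISPR Control, 4449, 4710 and 4491 in TIMP1 KO 1 and 6714, 6258 and 6297 in TIMP1 KO 2. CRISPR Control lay below all other libraries and TIMP1 KO 2 above them, while WT and TIMP1 KO 1 overlapped. The log2 fold change from WT was -1.60 ± 0.08 (SE) in CRISPR Control (limma adjusted p = 3.7e-12), 0.49 ± 0.08 in TIMP1 KO 2 (adjusted p = 2.65e-05) and -0.00 ± 0.08 in TIMP1 KO 1 (adjusted p = 0.986).

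LINC00511, a long noncoding RNA described in several carcinomas, had the next highest mean count. It was at 1981, 2055 and 1926 normalised counts in WT, 929, 1047 and 948 in CRISPR Control, 2933, 2592 and 2559 in TIMP1 KO 1 and 2188, 2380 and 2450 in TIMP1 KO 2. All deficient libraries were above all competent ones. LINC00511 rose from WT in TIMP1 KO 1 (log2 fold change 0.44 ± 0.08, limma adjusted p = 0.000233) and less in TIMP1 KO 2 (0.23 ± 0.08, adjusted p = 0.0166, not called without WT replicate 3 or without TIMP1 KO 2 replicate 2 or 3), and fell by 1.03 in CRISPR Control.

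LINC00205 starts 137 bases from POFUT2, which encodes a protein O-fucosyltransferase. Its libraries were at 1825, 1716 and 1918 normalised counts in WT, 1271, 969 and 980 in CRISPR Control, 2426, 2195 and 2258 in TIMP1 KO 1 and 2079, 2094 and 2143 in TIMP1 KO 2. Here too CRISPR Control was lowest without overlap, while POFUT2 did not pass the test in that comparison (0.01 for POFUT2 and -0.77 for LINC00205 on the log2 scale, limma adjusted p = 0.912 and 1.2e-06).

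LINC00370 and LINC00662 completed the 5 members of highest mean. LINC00370 fell from 1451 ± 144 normalised counts (SD, n = 3) in WT to 593 ± 60.5 in TIMP1 KO 1 and 818 ± 111 in TIMP1 KO 2, with 1198 ± 136 in CRISPR Control. CRISPR Control was also called lower than WT, a call lost in 7 of the 12 fits that left out 1 library. LINC00662 was higher than WT in every edited line, at 809 ± 35.3 in WT and 1063 ± 77.0 in CRISPR Control, 1009 ± 39.6 in TIMP1 KO 1 and 1166 ± 4.67 in TIMP1 KO 2. Per kb of exon the order was another, with LINC00370 at 759 and LINC00261 at 696 normalised counts per kb ahead of LINC00205 at 239, LINC00511 at 72.3 and LINC00662 at 30.5, around a median over members of 13.4.

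**Figure D4:**
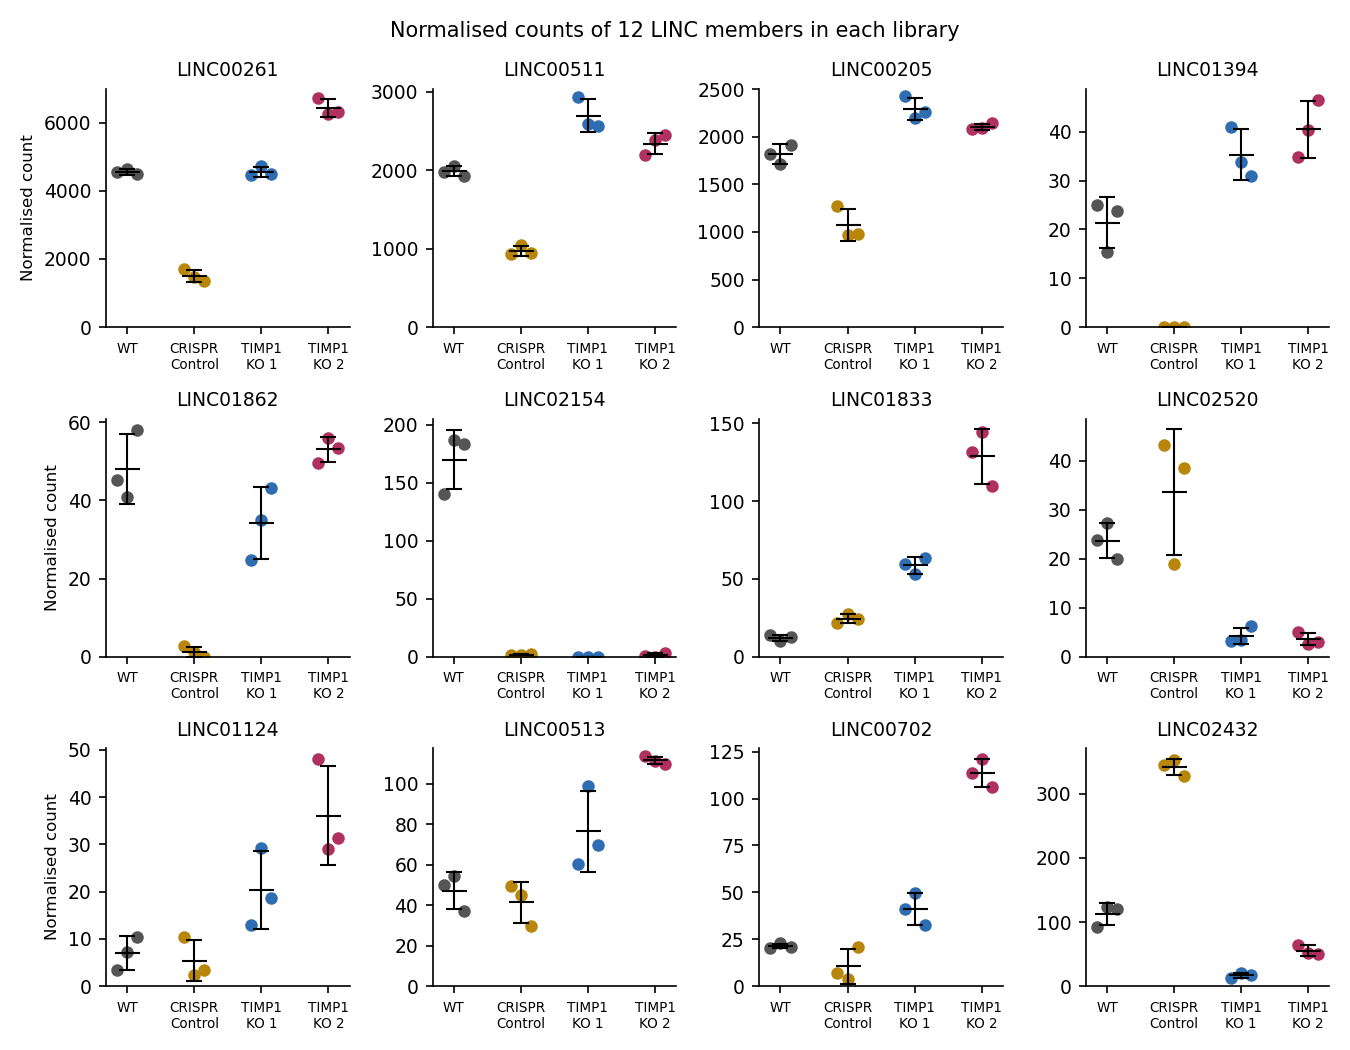
Normalised counts (vertical axes, from 0) of 12 LINC members in each library of the 4 lines; points are libraries, the wide tick is the mean of the 3 replicates and bars are SD. LINC00261, LINC00511, LINC00205, LINC01394 and LINC01862 are lowest in CRISPR Control, LINC02154 is high in WT alone, and LINC01833, LINC01124 and LINC00513 are higher in both knockout lines than in the competent lines.

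Members in which 1 line lay wholly apart from the others were counted beside all genes. The 3 libraries of CRISPR Control lay below the 9 others in 59 members (31.4%) and above them in 13 (6.91%), against 17.5% and 18.6% of all genes. For TIMP1 KO 2 the counts were 39 above (20.7%) and 4 below (2.13%), against 13.2% and 13.8%. WT stood above in 9 and below in 9 (4.79% each), near the 4.79% and 4.74% of all genes. TIMP1 KO 1 stood above in 7 (3.72%) and below in 4 (2.13%), under the 5.90% and 4.99% of all genes.

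Among the members low in CRISPR Control, LINC01394 had no read in any of its 3 libraries. It lies 6940 bases from FOXQ1, a forkhead transcription factor gene, on chromosome 6 (1321698 to 1324022, minus strand). LINC01394 was at 24.9, 15.5 and 23.8 normalised counts in WT, 41.1, 33.8 and 30.9 in TIMP1 KO 1 and 34.8, 40.3 and 46.4 in TIMP1 KO 2. Against 3 reads per library, which a count of 0 allows and which covers counting error only, WT was at least 6.79-fold, TIMP1 KO 1 at least 11.2-fold and TIMP1 KO 2 at least 12.9-fold higher. The test of CRISPR Control against WT gave a limma adjusted p of 2.24e-09.

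FOXQ1 itself moved with it, at 2067, 2057 and 2096 normalised counts in WT and 61.3, 54.6 and 57.1 in CRISPR Control (log2 fold change -5.15, limma adjusted p = 3.07e-19), and at 2448 and 2526 on average in TIMP1 KO 1 and TIMP1 KO 2. LINC01862, annotated as NFILZ, a protein-coding gene, showed the same shape: 45.3, 40.9 and 58.1 in WT, 2.59, 1.19 and 0 in CRISPR Control, 24.8, 34.9 and 43.3 in TIMP1 KO 1 and 49.7, 56.1 and 53.5 in TIMP1 KO 2 (limma adjusted p = 8.97e-09 for CRISPR Control against WT). In 9 members no CRISPR Control library had more than 3 reads, which held in 1 member each for WT, TIMP1 KO 1 and TIMP1 KO 2. The share over all genes is not given, so these counts do not show how the members compare with all genes.

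CRISPR Control was high in LINC00862, LINC01515 and LINC01305. LINC00862 had 89.0, 51.0 and 69.2 normalised counts there and at most 17.0 in any other library (log2 fold change from WT 2.29 ± 0.39, limma adjusted p = 7.65e-05). LINC01515 had 28.7 ± 8.83 (SD, n = 3) there and 2.00 ± 0.24 in WT, and LINC01305, 4311 bases from the transcription factor gene SP9, had 31.6 ± 3.82 and 5.99 ± 3.88. LINC01515 and LINC01305 met the minimum of 10 through CRISPR Control alone, so that they differ there follows from their choice.

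LINC02154 on the X chromosome met the minimum through WT alone, so its difference also follows from its choice. It was at 140, 186 and 183 normalised counts in WT, between 1.19 and 2.20 in CRISPR Control, at 0 in all 3 libraries of TIMP1 KO 1, and between 0 and 3.03 in TIMP1 KO 2. Every edited line was therefore below WT, and against 3 reads per library WT was at least 54.99-fold higher than TIMP1 KO 1. LINC01588 was also highest in WT, with 216 ± 11.5 in WT (SD, n = 3), 52.1 ± 16.5 in CRISPR Control, 94.0 ± 16.2 in TIMP1 KO 1 and 107 ± 3.90 in TIMP1 KO 2. LINC01843 was at 24.3 ± 3.16 in WT and 2.02 ± 3.49 in CRISPR Control, with 12.7 ± 4.00 and 10.5 ± 0.80 in the knockout lines, whose differences from WT did not pass the test.

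LINC01833 and LINC02035 were lowest in WT. LINC01833 lies 2503 bases from the homeobox gene SIX3 and was at 13.6, 10.0 and 12.4 normalised counts in WT, 21.6, 27.3 and 24.2 in CRISPR Control, 59.4, 52.9 and 63.6 in TIMP1 KO 1 and 132, 145 and 110 in TIMP1 KO 2. The 4 lines did not overlap and rose in that order, with log2 fold changes from WT of 0.97 ± 0.22, 2.20 ± 0.22 and 3.32 ± 0.22 (limma adjusted p = 0.00107, 2.22e-07 and 3.22e-10). LINC02035 was at 41.8 ± 1.61 in WT (SD, n = 3) and at 122 ± 23.1, 84.8 ± 20.2 and 90.5 ± 5.13 in the edited lines.

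TIMP1 KO 1 was set apart by few members. LINC01391, 204 bases from the forkhead gene FOXL2, was at 45.4, 37.1 and 66.3 normalised counts there, above a highest value of 29.8 elsewhere, but TIMP1 KO 1 against WT did not pass the test (log2 fold change 1.25 ± 0.62, limma adjusted p = 0.129). LINC00466, 5293 bases from FOXD3, was at 63.8 ± 11.8 there (SD, n = 3) and 43.1 ± 5.04 in WT, with an adjusted p of 0.0606. LINC01013 had 63.6 ± 3.89 there and 34.9 ± 11.3 in WT, and its exons overlap on the other strand those of CCN2, a matricellular growth factor gene. CCN2 had 9448 normalised counts in WT and 19022 in TIMP1 KO 1, so reads of CCN2 may be counted in LINC01013, whose call against WT (limma adjusted p = 0.0357) was lost without WT replicate 1 or 2 or any 1 of the TIMP1 KO 1 libraries.

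LINC02432 was the member furthest below the rest in TIMP1 KO 1. Its libraries were at 92.8, 124 and 120 normalised counts in WT, 345, 352 and 327 in CRISPR Control, 13.0, 20.3 and 16.8 in TIMP1 KO 1 and 64.6, 50.9 and 49.4 in TIMP1 KO 2. No line overlapped another. LINC02432 fell by 2.69 ± 0.19 on the log2 scale in TIMP1 KO 1 and by 1.01 ± 0.19 in TIMP1 KO 2, and rose by 1.61 ± 0.19 in CRISPR Control (limma adjusted p = 2.43e-09, 0.000183 and 1.08e-06).

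In TIMP1 KO 2, LINC00957, LINC00702 and LINC01119 stood furthest above the other lines. LINC00702 was at 113, 121 and 106 normalised counts there, 41.1, 49.5 and 32.7 in TIMP1 KO 1, 20.4, 22.7 and 21.0 in WT and 6.91, 3.56 and 20.9 in CRISPR Control (TIMP1 KO 2 against WT 2.36 ± 0.39, limma adjusted p = 4.56e-05). Means rose from 19.04 ± 9.08 in WT to 78.6 ± 7.82 for LINC00957 and from 11 ± 6.16 to 35.3 ± 4.38 for LINC01119 (SD, n = 3), and LINC00957 shares 412 bases at 98.3% identity with RASA4. LINC00664 was lowest there, at 66.9 ± 9.38 against 143 ± 8.34 in WT, as was LINC00623, at 91.2 ± 16.3 against 139 ± 12.5, which shares 1251 bases at 99.3% identity with LINC00869.

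The study compared both knockout lines with WT and set aside genes that also changed in CRISPR Control. Against WT, 32 members were called in both knockout lines (17.0% against 28.1% of all genes) and 31 in the same direction (16.5% against 26.4%). Of these 31, CRISPR Control was called the same way in 9 (4.79% against 6.71%) and the opposite way in 14 (7.45% against 9.56%). That left 8 members, 7 higher and 1 lower in both knockout lines, where 5.00% and 5.18% of all genes were so placed. Of the 8, the 6 deficient libraries lay wholly on one side of the 6 competent ones in 4. Over all 188 members the deficient libraries lay wholly above in 27 and wholly below in 9, against 12.3% and 12.4% of all genes.

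LINC02520 was the one that fell. It lies on chromosome 6 (37507348 to 37536266, plus strand), 7455 bases from CCDC167, with no exon overlapping another gene, and was at 23.8, 27.3 and 20.003 normalised counts in WT, 43.2, 18.98 and 38.5 in CRISPR Control, 3.24, 3.38 and 6.18 in TIMP1 KO 1 and 4.97, 2.63 and 3.03 in TIMP1 KO 2. All deficient libraries were below all competent ones. LINC02520 fell by 2.26 ± 0.41 in TIMP1 KO 1 and fell by 2.47 ± 0.41 in TIMP1 KO 2 from WT on the log2 scale (limma adjusted p = 0.000244 and 4.69e-05), and it stayed among the 8 in each of the 12 fits that left out 1 library.

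LINC01124 lies head to head with SP5, a transcription factor gene responsive to Wnt signalling, 770 bases apart. It was at 3.396, 7.27 and 10.5 normalised counts in WT, 10.4, 2.37 and 3.30 in CRISPR Control, 13.0, 29.3 and 18.6 in TIMP1 KO 1 and 48, 28.9 and 31.3 in TIMP1 KO 2. The deficient libraries were all higher, by 1.44 ± 0.48 and 2.28 ± 0.48 from WT on the log2 scale (limma adjusted p = 0.0257 and 0.000559), although it left the 8 without WT replicate 1, without TIMP1 KO 1 replicate 2 or 3 and with no filter on low values. LINC01124 met the minimum of 10 through the knockout lines alone, so that it is higher there follows from its choice. SP5 was at 10.2, 10.9 and 9.53 in WT, 13.8, 17.8 and 31.9 in CRISPR Control, 65.9, 57.4 and 62.7 in TIMP1 KO 1 and 56.3, 91.2 and 121 in TIMP1 KO 2, and was itself higher than WT in CRISPR Control (limma adjusted p = 0.0183).

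LINC00513 on chromosome 7 was at 49.8, 54.5 and 37.2 normalised counts in WT, 49.2, 45.1 and 29.7 in CRISPR Control, 60.5, 99.0 and 69.8 in TIMP1 KO 1 and 113, 111 and 110 in TIMP1 KO 2. It rose from WT by 0.67 ± 0.23 and 1.24 ± 0.23 on the log2 scale (limma adjusted p = 0.0278 and 0.000147), and it left the 8 without WT replicate 3, without TIMP1 KO 1 replicate 2 and with no filter on low values. LINC01460 was at 10.7 ± 2.49 in WT (SD, n = 3), 5.87 ± 3.20 in CRISPR Control, 24.2 ± 6.47 in TIMP1 KO 1 and 31.1 ± 9.70 in TIMP1 KO 2, with adjusted p of 0.0435 and 0.00647 against WT, and it stayed among the 8 in 4 of the 12 fits, those without CRISPR Control replicate 2 or 3, TIMP1 KO 1 replicate 2 or TIMP1 KO 2 replicate 1, and left it with no filter on low values and under DESeq2.

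The other 4 overlapped between deficient and competent libraries. LINC00467 was at 182 ± 15.9 normalised counts in WT (SD, n = 3), 217 ± 16.2 in CRISPR Control, 259 ± 41.6 in TIMP1 KO 1 and 335 ± 8.19 in TIMP1 KO 2, and TIMP1 KO 1 against CRISPR Control did not pass the test (limma adjusted p = 0.107). LINC02482 was at 89.5 ± 16.6, 93.4 ± 2.69, 136 ± 19.8 and 130 ± 23.7 in the same order, and left the 8 without WT replicate 3, TIMP1 KO 1 replicate 3 or TIMP1 KO 2 replicate 1 or 2, as LINC01410 did without WT replicate 2. LINC00240 and LINC01410 rose from 8.45 ± 1.61 and 8.45 ± 6.63 in WT to 26.8 ± 5.22 and 54.1 ± 6.05 in TIMP1 KO 2, and they share 4139 bases at 97.8% identity and 2879 bases at 97.9% identity with other genes. In TIMP1 KO 1 LINC00240 rose by 1.15 from WT on the log2 scale, while TIMP1 KO 1 against CRISPR Control did not pass the test (0.55).

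Of 27 LINC RNAs listed from general knowledge as having a published functional study, 18 were among the members. In the deficient lines 8 were higher and 5 lower than in the competent lines, which is 44.4% and 27.8% against 32.9% and 33% of all genes, with a median log2 fold change of 0.18 against 0.00. In deficient against competent lines the largest rises among the 18 were in LINC00261, LINC00963 and LINC00511 (log2 fold changes of 1.05, 0.90 and 0.85). The largest fall was in LINC00472 (-1.71). Against WT, LINC00261 fell by 1.60 in CRISPR Control, rose by 0.49 in TIMP1 KO 2 and was not called in TIMP1 KO 1 (-0.00). LINC00511 fell by 1.03 in CRISPR Control. LINC00963 was at 590 ± 12.3 normalised counts in WT (SD, n = 3), 402 ± 60.8 in CRISPR Control, 1004 ± 24.97 in TIMP1 KO 1 and 814 ± 64.4 in TIMP1 KO 2. LINC00472, which overlaps OGFRL1 on the other strand, was at 92.9 ± 3.84, 269 ± 50.4, 39.4 ± 10.1 and 59.6 ± 15.2 in the same order, and OGFRL1 was at 2388, 4281, 1635 and 1063. Both fell or rose against WT in CRISPR Control opposite to the knockout lines.

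For comparison, 39 of 48 listed long noncoding RNAs with other names were tested, 21 higher and 12 lower in the deficient lines (53.8% and 30.8%, against 32.9% and 33% of all genes; median 0.30). H19, an imprinted RNA, averaged 8802 normalised counts in WT and 91894 in CRISPR Control, with 525 in TIMP1 KO 1 and 1545 in TIMP1 KO 2. UCA1, first described in bladder cancer, was at 359 ± 42.4 in WT (SD, n = 3) and had at most 1.10 in any edited library.

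Some members showed no called difference between any lines. Among members with a mean of at least 50, LINC01128, LINC00476 and LINC01006 had the smallest differences over the 6 pairs of lines. LINC01128 was at 634, 613 and 611 normalised counts in WT, 631, 626 and 654 in CRISPR Control, 607, 656 and 611 in TIMP1 KO 1 and 650, 606 and 653 in TIMP1 KO 2. Its 95% interval in CRISPR Control against WT ran from -0.13 to 0.21 on the log2 scale, that of LINC00476 from -0.53 to 0.33, and that of LINC01006 from -0.17 to 0.31. They were picked for their small differences, so this is a description.

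The nearest protein-coding genes were read beside the members. Of the 138 members with a tested protein-coding gene as nearest neighbour within 100 kb, 71 were called in CRISPR Control against WT, and the neighbour was called too in 49 (69.0%), in the same direction in 37 (75.5% of the 49). Over the 11707 other genes with such a neighbour the shares were 58.2% and 73.7%, and over other long noncoding RNAs 64.4% and 79.7%. Across these 138 pairs, which share libraries and are not independent, Pearson's r between the log2 fold changes of member and neighbour was 0.54 and Spearman's rho 0.46. Over the other genes r was 0.31, and over other long noncoding RNAs 0.45. In the 121 pairs without overlapping exons r was 0.55. In TIMP1 KO 2 against WT 62 members were called, 37 with a called neighbour (59.7%, against 59.3% over the other genes) and 25 in the same direction (67.6% against 66.4%). In TIMP1 KO 1 the counts were 26, 11 and 10, with 42.3% against 41.9% and 90.9% against 67.3%. In these comparisons r was 0.26 and 0.24, against 0.25 and 0.24 over the other genes. Over other long noncoding RNAs the neighbour was called too in 61.5% in TIMP1 KO 2 and 50.2% in TIMP1 KO 1. There the same-direction shares were 75.7% and 83.7%, and r was 0.37 and 0.39.

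Several pairs, named after their values were seen, stood out in CRISPR Control. LINC01546 on the X chromosome was at 17.0, 20.001 and 19.1 normalised counts in WT and 0.86, 0 and 0 in CRISPR Control, and its neighbour MXRA5, an extracellular matrix gene 18407 bases away, at 1244, 1268 and 1295 in WT and 0.86, 2.37 and 2.20 in CRISPR Control. In the knockout lines LINC01546 was at 24.8 to 33.8 and MXRA5 at 346 to 1064. LINC01968 was at 22.6, 28.2 and 31.4 in WT and 1.73, 0 and 4.40 in CRISPR Control, and its neighbour FAM43A at 4721 and 684 on average. In TIMP1 KO 2 a pair rose together: LINC02041 had 46.4, 37.7 and 44.4 normalised counts there and at most 11.3 in WT, and RTP4, an interferon-induced gene 76769 bases away, 121, 98.2 and 140 there and at most 4.76 in WT. LINC02041 met the minimum through the knockout lines alone, so that it is higher in those lines follows from its choice.

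Forkhead genes were the nearest protein-coding gene of 5 members, a group also seen only after the values were known. LINC00261 beside FOXA2, LINC01391 beside FOXL2 and LINC01394 beside FOXQ1 were lower in CRISPR Control than in WT, as were these 3 genes. FOXA2 fell there from 4398 to 2236 normalised counts on average, and in TIMP1 KO 2 FOXA2 fell (log2 fold change -0.44, limma adjusted p = 0.000125) where LINC00261 rose. FOXA2 was also lower than WT in TIMP1 KO 1 (-0.25, limma adjusted p = 0.0191), where LINC00261 was not called. LINC00466 beside FOXD3 was not called in CRISPR Control while FOXD3 was lower, and LINC01385 beside FOXD1 was not called there while FOXD1 was higher.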

How the data were processed

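The authors trimmed the paired reads with Cutadapt, aligned them to GRCh38 with STAR, counted them per gene with featureCounts and divided each library by its DESeq2 size factor, and the deposited table holds these normalised read counts, a depth-scaled signal per gene. The annotation release and the strand setting are not given in the sources used here. Of the table, 4 columns of line means and 1 blank line were not used. Every value was a whole multiple of its library's smallest step (within 0.01 of a read for 100% of values), so whole reads were recovered and gave the depth of each library. Genes with a mean of at least 10 were tested on log2(normalised count + 1) with limma 3.58.1 in R 4.3.3, all 12 libraries in one fit with a mean-variance trend and Benjamini-Hochberg adjustment, after a test on simulated data. Alternatives were edgeR 4.0.16 and DESeq2 1.42.0 on the recovered reads, other pseudocounts, minimums and scalings, a replicate block, and each library left out. The p-values measure the spread between these libraries. Members were annotated with GENCODE release 44 by gene ID and near copies were found with BLAST 2.17.0. Members, lists and the rule for named genes (the highest means, the largest gaps of 1 line from the rest, the members changed in both knockout lines and not in CRISPR Control, and the smallest differences) were chosen with earlier results of these data known. LINC00240, LINC00467, LINC01410, LINC02482, LINC01546, LINC01968, LINC02041, LINC01385, H19, UCA1 and some neighbour genes were named outside that rule, after their values were seen.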

Additional observations from a re-analysis of the deposited data

Results flagged for a closer look

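Among the members changed in both knockout lines against WT, 2 are singled out here for a difference between those lines, out of the 52 members called in TIMP1 KO 2 against TIMP1 KO 1. LINC00467 was higher in TIMP1 KO 2 by 0.38 on the log2 scale (limma adjusted p = 0.0238), with changes from WT of 0.50 in TIMP1 KO 1 and 0.89 in TIMP1 KO 2. LINC00623 had a log2 fold change of -1.02 between the same lines (limma adjusted p = 2.23e-05), since it was higher than WT in TIMP1 KO 1 (0.41) and lower in TIMP1 KO 2 (-0.61), and the TIMP1 KO 1 call was lost without WT replicate 2 or 3 or TIMP1 KO 1 replicate 1 or 2. LINC00623 shares sequence with LINC00869. With 3 libraries a line, single libraries were not checked for standing apart within a line.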

How the results depend on the processing

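No called result changed direction under the alternatives run. Leaving out 1 library moved 3 uncalled differences between deficient and competent lines across 0, with log2 ranges of -0.14 to 0.05 for LINC01588, -0.13 to 0.03 for LINC00476 and -0.01 to 0.02 for LINC01128, and equal library totals did so for LINC00476 (0.01). Requiring an absolute log2 fold change of 1 left 15 members called in TIMP1 KO 1 against WT, 47 in TIMP1 KO 2 against WT, 58 in CRISPR Control against WT, 21 in TIMP1 KO 2 against TIMP1 KO 1 and 50 in deficient against competent lines. A minimum mean of 50, which leaves 77 members, gave 43 in TIMP1 KO 2 and 52 in CRISPR Control against WT, 53 in either knockout line against CRISPR Control, 30 between the knockout lines, 55 in deficient against competent lines and 3 members changed in both knockout lines and not in CRISPR Control. Shares over all genes are not given under these settings, with a library left out or with a replicate block. Those counts therefore do not show how the members compare with all genes. With WT alone as the competent group, chosen after seeing the data, 71 were called. Leaving out 1 library gave 29 to 45 members in TIMP1 KO 1 against WT, 72 to 92 in TIMP1 KO 2 against WT, 91 to 99 in CRISPR Control against WT, 106 to 116 and 108 to 122 in the knockout lines against CRISPR Control, 37 to 56 between them, 109 to 116 in deficient against competent lines and 7 to 12 in the group changed in both. With a replicate block the counts were 40, 88, 96, 112, 119, 51, 114 and 8 in that order, and same-numbered libraries correlated between -0.129 and 0.160 in their deviations, so the numbers were not taken as pairs. LINC01305 lost its call in deficient against competent lines under 12 alternatives. Scaling to equal library totals moved the median of all genes by 0.11 in TIMP1 KO 2 against CRISPR Control. With no filter on low values LINC00513, LINC01124 and LINC01460 left the group changed in both knockout lines, as LINC01460 did under DESeq2. Members near 10 normalised counts rest on few reads, and an uncalled difference there is not shown to be absent.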
